A study of Rattus norvegicus with 9 samples.

Results

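The cyclic nucleotide phosphodiesterases described here are 10 of the 14217 rat genes that a single-gene probe set represented on the arrays: Pde1a, Pde1c, Pde2a, Pde3b, Pde4a, Pde4b, Pde4d, Pde7a, Pde8b and Pde10a. They were listed by name as members of 1 gene family, with earlier results of these data known, the Pde2a difference among them. All 10 were measured, and each was read from its brightest probe set, chosen by its mean log2 level in the 9 arrays. That choice uses the levels, so those given below are a description without a test. RNA came from pancreatic islets of Wistar rats, freed by collagenase digestion. The lean group of 4 samples was fed standard chow and the obese group of 5 samples a high-caloric cafeteria diet, an energy-dense choice of palatable foods, for 30 days. No genetic change or drug is named for either group, and the labels do not state age, sex, feeding state or pooling of animals. The p-values therefore measure the spread between these samples.

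Phosphodiesterases break down cyclic AMP and cyclic GMP and so end the signals that adenylyl and guanylyl cyclases start. In the beta cell, cyclic AMP raised by incretin hormones amplifies the release of insulin through protein kinase A and the exchange factor Epac2, and phosphodiesterases set how far and how long that signal lasts. The families differ in control: calcium and calmodulin activate the Pde1 enzymes, cyclic GMP activates Pde2a and inhibits Pde3b, and the Pde4, Pde7 and Pde8 enzymes act on cyclic AMP alone.

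The tissue label was checked against markers. All 8 measured beta cell markers were brighter than every gene of a dim reference list. It held 35 measured genes, mostly of the retina, sperm, striated muscle, milk, skin and olfactory tissue. The beta cell markers' mean log2 level lay between 11.59 and 11.79 in all 9 arrays. Acinar markers were also present, with 11 of 15 brighter than the reference list, and their mean log2 level ranged from 5.85 to 6.74 in lean and from 5.58 to 7.27 in cafeteria arrays. Lean replicate 3 stood apart in lymphocyte markers (mean log2 level 6.02, against 4.49 to 4.89 in the other 8 arrays), and lean replicate 1 in immediate early and heat shock genes (9.43, against 7.43 to 8.53).

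By brightness, 6 members exceeded every reference gene, whose 9-array means ran from 3.36 to 5.91 log2 with a median of 4.31. Pde10a, which hydrolyses both cyclic nucleotides and is best known from the striatum, had the highest mean log2 level (9.13), followed by Pde3b (8.44), the insulin-activated enzyme of beta cells and fat cells. Pde4b (6.93) and Pde4d (6.89), both cyclic AMP-specific, stood beside Pde2a (6.85), and Pde4a reached 6.05. The other probe sets of Pde4b (5.15) and Pde4d (5.14 and 4.49) lay within the range of the reference genes, and that of Pde10a (6.91) above it. Ranked among all genes, the mean of Pde10a was at the 90.4th percentile, that of Pde3b at the 83.1st and that of Pde4a at the 45.3rd. Probes differ in how well they bind, so these levels show which probe sets stood above the dim range and do not rank the amounts of the transcripts.

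The remaining 4 members had means within the dim range. Pde7a (5.02) was brighter than 30 of the 35 reference genes and Pde1c (4.59), a calmodulin-dependent enzyme studied in beta cells, brighter than 24. Pde8b (4.28), a cyclic AMP enzyme that common inhibitors do not block, was brighter than 17, and Pde1a (3.79) than 6. Pde1a and Pde8b thus read no brighter than the median of the reference list (4.31), and a weak probe set would read the same. RMA gives no detection call, and it compresses small differences of dim probe sets.

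**Figure D1:**
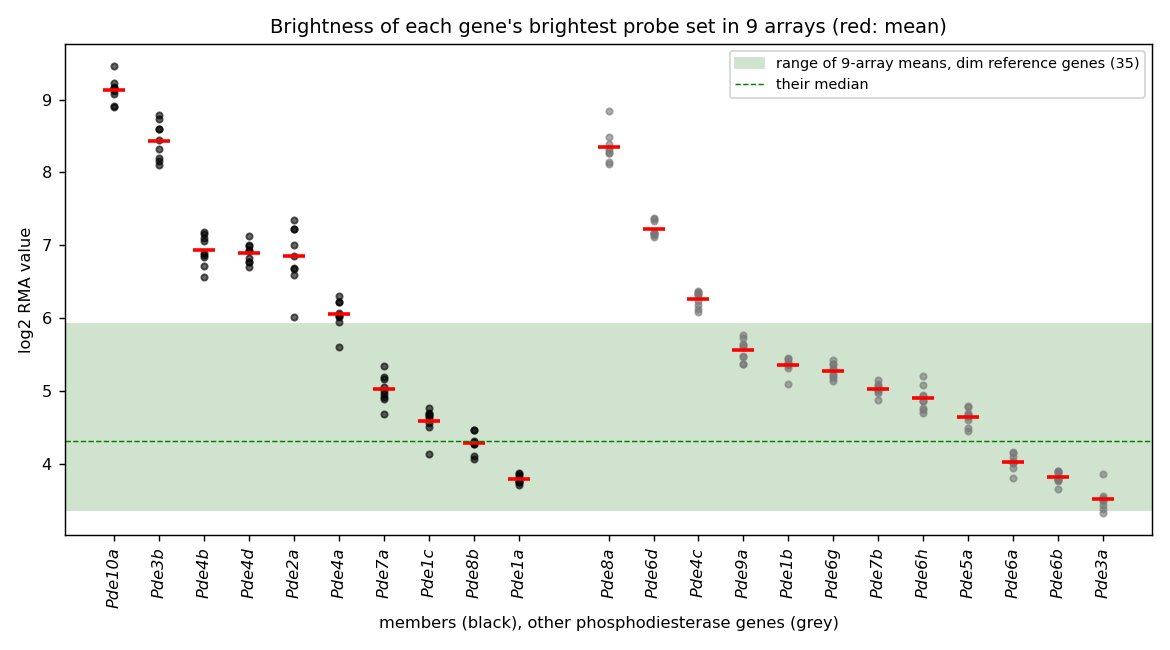
Log2 RMA value of the brightest probe set of each phosphodiesterase gene in each of the 9 arrays (points) with the mean (red bar); the green band spans the 9-array means of the 35 dim reference genes, from 3.36 to 5.91. The 6 brightest members lie above the band by their mean and Pde7a, Pde1c, Pde8b and Pde1a lie inside it.

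Of the 12 other measured phosphodiesterase genes, 3 were brighter than every reference gene. These were Pde8a (mean log2 level 8.35), the relative of Pde8b, Pde6d (7.22), which encodes a carrier of lipid-modified proteins and no enzyme, and Pde4c (6.26). Pde9a (5.56), Pde1b (5.35), Pde6g (5.28), Pde7b (5.03), Pde6h (4.90), Pde5a (4.64), Pde6a (4.03), Pde6b (3.81) and Pde3a (3.51) lay within the range of the reference list, to which Pde6a and Pde6b themselves belong. Pde6c and Pde11a were not analysed here.

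The diets were compared by cafeteria minus lean differences on the log2 scale, tested with limma over all 31042 probe sets that are not controls. No member passed an adjusted p of 0.05, and neither did any of the 14217 genes (0%). At an unadjusted p under 0.05 there was 1 member of 10, beside 952 genes (6.70%). It had lower values under the cafeteria diet, as did 466 of those genes (3.28% of all). A share of 1 in 10 is near this background. The groups did not overlap for 1 member, beside 308 genes (2.17%). The members' differences had a median of -0.0402, with 5 higher and 5 lower, and that of all genes was 0.0025.

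That member was Pde2a, the phosphodiesterase that cyclic GMP activates and that lets a rise of cyclic GMP lower cyclic AMP. Its log2 values were 7.22, 7.35, 7.23 and 7.01 in lean replicates 1 to 4. In cafeteria replicates 1 to 5 they were 6.01, 6.59, 6.86, 6.69 and 6.67. Every cafeteria array was below every lean array, with a gap of 0.15 between the highest cafeteria and the lowest lean value, and cafeteria replicate 1 was the lowest. The lean mean was 7.20 ± 0.14 (SD, n = 4) and the cafeteria mean 6.56 ± 0.32 (SD, n = 5).

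The difference of -0.64 (SE 0.15, 95% interval -0.98 to -0.30) corresponds to a level 1.56-fold lower under the cafeteria diet (limma, unadjusted p = 0.00176, adjusted p = 0.844). Pde2a was listed with this difference already known, so its p and its rank by p (24th of 14217 genes) describe these arrays and are no independent support. It had a single probe set, so no other set of probes bears on it. Without cafeteria replicate 1 the difference was -0.50, and with any other array left out it lay between -0.71 and -0.59. In bulk islets, fewer cells of a type and less RNA per cell cannot be told apart.

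**Figure D2:**
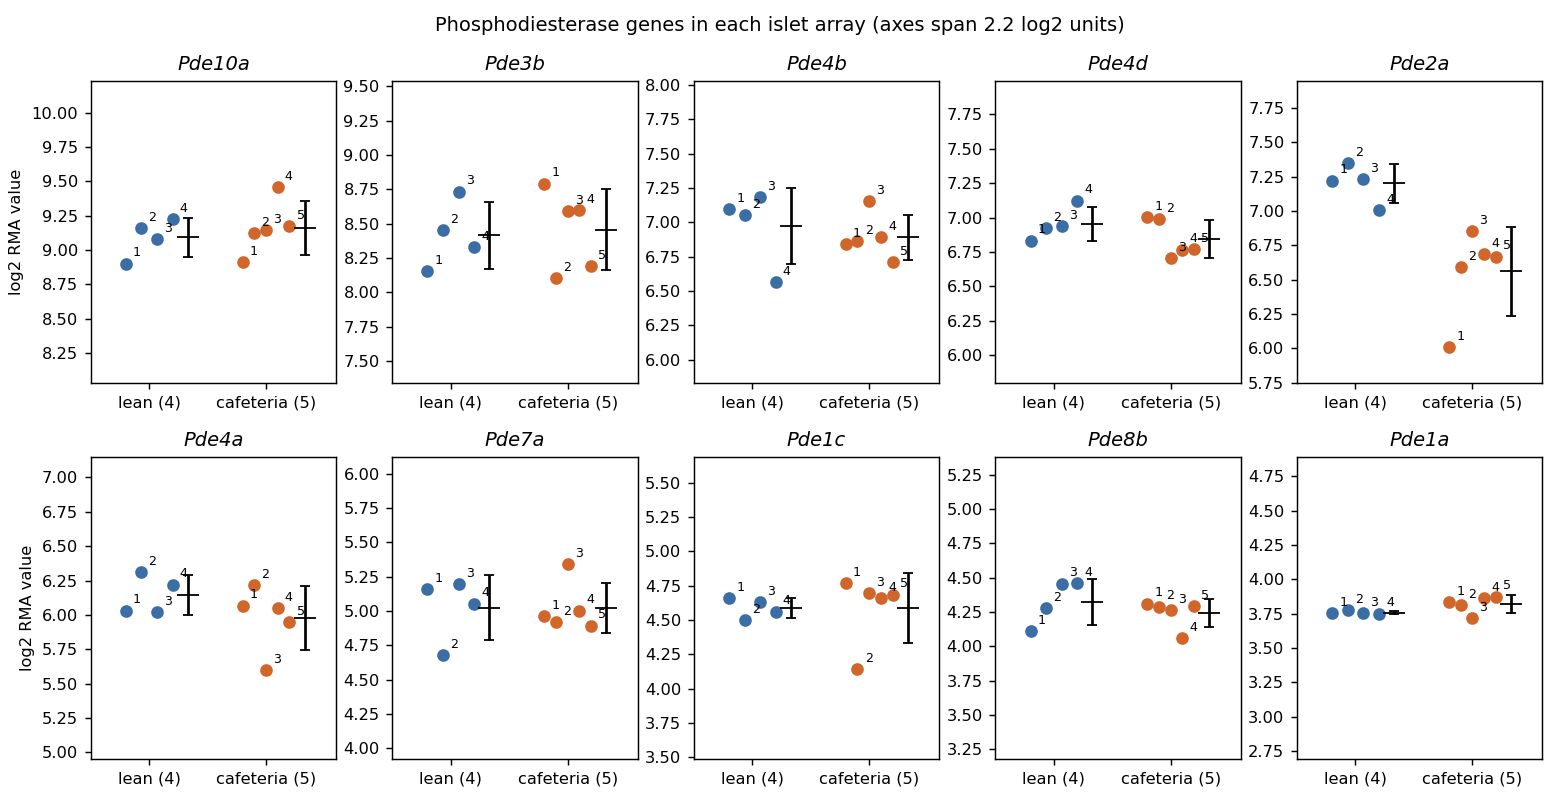
Log2 RMA value of each member in the 4 lean (blue) and 5 cafeteria (orange) arrays, numbered by replicate, with the group mean and SD (black); every panel spans the same range of log2 units. The groups are apart for Pde2a, with lean values from 7.01 to 7.35 and cafeteria values from 6.01 to 6.86, and overlap for the other 9 genes.

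Pde2a had the smallest unadjusted p of the members, though it did not pass the adjusted threshold, and its promoter is shown for that reason. It has more than 1 start site in RefSeq (GRCr8). The promoter windows of both listed starts, each from 250 bases before to 50 after the start, are given. Both lie on the plus strand of chromosome 1, and capitals mark the GC box GGGCGG, searched on both strands with overlapping matches counted. The window of the upstream start is chr1:165235373-165235672 and that of the downstream start chr1:165265759-165266058.
Pde2a upstream start: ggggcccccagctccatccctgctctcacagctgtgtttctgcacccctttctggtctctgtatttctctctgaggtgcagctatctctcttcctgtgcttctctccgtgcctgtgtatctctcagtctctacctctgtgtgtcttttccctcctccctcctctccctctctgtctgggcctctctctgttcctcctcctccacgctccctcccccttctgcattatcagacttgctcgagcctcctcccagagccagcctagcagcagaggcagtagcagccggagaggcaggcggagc
Pde2a downstream start: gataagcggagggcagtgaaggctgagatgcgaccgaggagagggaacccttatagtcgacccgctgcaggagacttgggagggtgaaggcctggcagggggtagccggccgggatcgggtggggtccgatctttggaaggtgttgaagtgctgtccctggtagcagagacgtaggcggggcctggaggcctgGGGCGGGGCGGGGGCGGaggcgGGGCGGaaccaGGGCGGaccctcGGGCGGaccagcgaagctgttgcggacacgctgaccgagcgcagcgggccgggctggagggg
The upstream window held 0 GC boxes and was 59.0% G or C, and the downstream window held 6 and was 69.7% G or C. A GC box was in 33.1% of all 33469 RefSeq promoter windows. The probe set was not assigned to either start, so the values do not say which start the measured transcripts used.

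Marker lists of other cells are given beside Pde2a, and no gene of them passed the test. Endothelial markers, of cells known to express Pde2a, were lower in 11 of 13 measured genes (median -0.13), and Tie1 (-0.23) and Icam2 (-0.24) had the smallest p. Their mean log2 level ranged from 7.80 to 7.92 in lean and from 7.64 to 7.94 in cafeteria arrays, and 12 of 13 were brighter than every reference gene. Macrophage markers were lower in 12 of 14, with a median of -0.17, a range of mean levels from 5.33 to 5.56 in lean and from 5.05 to 5.43 in cafeteria arrays, and 4 of 14 brighter than the reference genes. Lyz2 (-0.56) and C1qc (-0.38) had the smallest p. Stellate and smooth muscle markers were lower in 8 of 14, with a median of -0.0094, and Acta2 differed by -0.58 and Des by -0.23. The alpha, delta and other non-beta islet markers were lower in 10 of 10 (median -0.25) and ductal markers in 8 of 10 (median -0.22). Immediate early and heat shock genes were lower in 16 of 16 (median -0.62), and acinar markers higher in 14 of 15 (median 0.53). Of all genes, 50.8% were higher. Genes of a list can vary together within an array, so these are not counts of independent genes. The mean log2 level of the non-beta markers ranged from 9.19 to 9.47 in lean and from 8.73 to 9.39 in cafeteria arrays. That of the immediate early and heat shock genes ranged from 7.61 to 9.43 in lean and from 7.43 to 8.53 in cafeteria arrays. The mean log2 level of the ductal markers ranged from 7.04 to 8.20 in lean and from 7.21 to 7.33 in cafeteria arrays. Lean replicate 1 was the highest array in them.

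Cafeteria replicate 1, lowest in Pde2a, also had the lowest endothelial, stellate and macrophage scores, where a score is the mean over markers of the difference from the 9-array mean (-0.18, -0.55 and -0.27). Other arrays did not follow this order. Cafeteria replicate 2 had the highest endothelial score (0.11) and cafeteria replicate 4 the highest stellate score (0.25). Their Pde2a values (6.59 and 6.69) lay below every lean array. Lean replicate 2, highest in Pde2a (7.35), had an endothelial score of -0.023. With the endothelial score as a covariate the Pde2a difference was -0.52 (SE 0.19, limma unadjusted p = 0.0191, adjusted p = 0.774), and with the lymphocyte score it was -0.61. The part of any of these cell types in the difference was not tested.

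**Figure D3:**
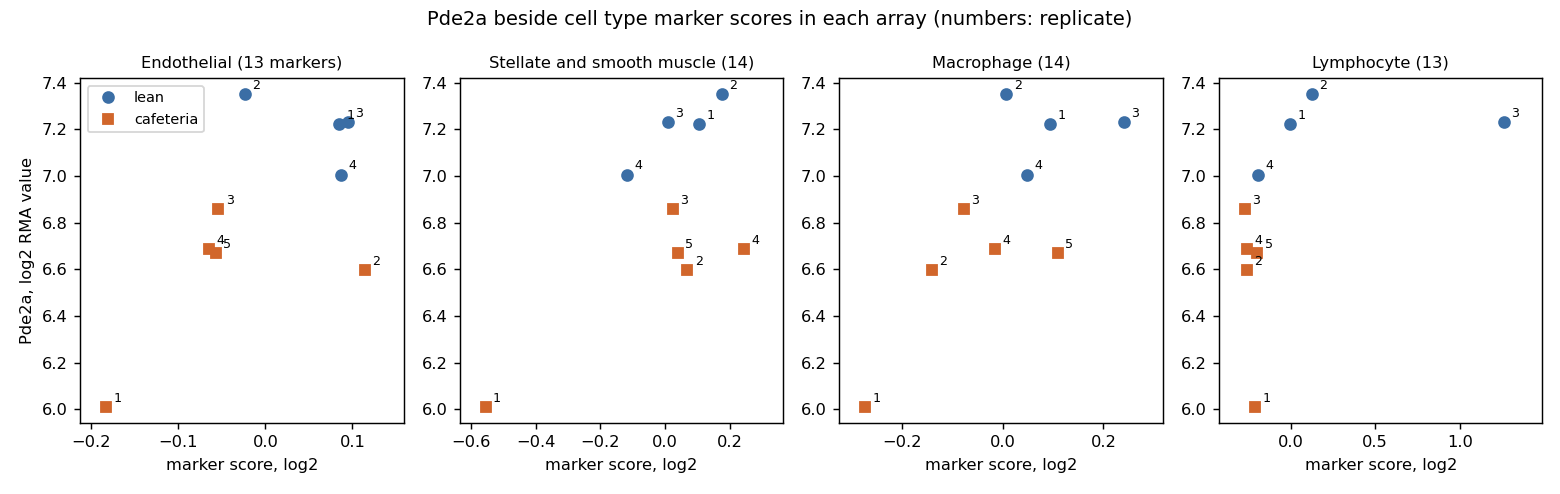
Log2 RMA value of Pde2a (vertical axis) against the score of 4 marker lists (horizontal axis, log2) in each array, lean as circles and cafeteria as squares, numbered by replicate. Cafeteria replicate 1 is lowest in Pde2a (6.01) and in the endothelial, stellate and macrophage scores, and lean replicate 3 is far to the right in the lymphocyte score (1.26). Cafeteria replicate 2 is highest in the endothelial score (0.11) and cafeteria replicate 4 in the stellate score (0.25).

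Among 9409 features brighter than the array median, the 5 whose values over the 9 arrays were most like those of Pde2a were Apol3l1 (Pearson r = 0.89), Vasp (0.88), Stom (0.87), Mxra8 (0.86) and Nlrx1 (0.86). Because these share the diet difference, r was also taken after each group's mean was removed, and it was then 0.68, 0.70, 0.87, 0.81 and 0.53. These 5 were picked before that step, and other features then had a higher r, up to 0.98. The 9 points are the same arrays throughout, so these values are descriptions and have no p.

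Pde3b and Pde10a, the brightest members, had overlapping groups. Pde3b was 8.15, 8.45, 8.73 and 8.33 in lean and 8.79, 8.11, 8.59, 8.60 and 8.19 in cafeteria replicates. Each group held both high and low arrays, and the highest and the lowest value of all both came from cafeteria samples. Its difference was 0.0401 (SE 0.16, 95% interval -0.31 to 0.39; limma adjusted p = 0.977). The interval runs from 0.805 to 1.31 times the level of lean samples.

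Pde10a ranged from 8.90 to 9.23 in lean and from 8.91 to 9.46 in cafeteria arrays, a difference of 0.069 (SE 0.11). Its other probe set, at a mean of 6.91, was uneven: it read 6.19 in lean replicate 1 and 6.10 in cafeteria replicate 3, and between 6.85 and 7.31 in the other 7 arrays. These 2 arrays also had the largest 3-prime minus 5-prime difference of the actin and Gapdh control probe sets, a measure of RNA quality (1.80 and 1.74 log2, against 1.21 to 1.73 elsewhere). Cafeteria replicate 5, close to them at 1.73, read 6.85 on this probe set. The part of RNA quality in the reading was not tested. The difference of that probe set was -0.081 (SE 0.27), opposite in sign to that of the brighter one.

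The Pde4 enzymes are the targets of rolipram, and all 3 members gave negative differences that did not pass the test. Pde4a differed by -0.17 (SE 0.12), with lean values from 6.02 to 6.31 and cafeteria values from 5.60 to 6.22. Cafeteria replicate 3 was the low array, and without it the difference was -0.0758. Pde4d differed by -0.11 (SE 0.09), with lean values from 6.83 to 7.12 and cafeteria values from 6.70 to 7.001, and without lean replicate 4 by -0.0504. Its dimmer probe sets differed by 0.15 (SE 0.12) and -0.0961 (SE 0.09), so the probe sets of Pde4d did not share a sign.

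Pde4b, the member of this group that leukocytes use in inflammation, differed by -0.0818 (SE 0.13) on its brighter probe set, with lean values from 6.57 to 7.18 and cafeteria values from 6.71 to 7.16. Its other probe set read 5.16, 5.82, 6.09 and 4.72 in lean replicates 1 to 4 and 4.85, 4.91, 5.23, 4.72 and 4.84 in cafeteria replicates 1 to 5. Lean replicates 2 and 3 were high, and the groups overlapped. The difference was -0.54 (SE 0.24; limma unadjusted p = 0.0511, adjusted p = 0.844), and -0.32 without lean replicate 3, the array with the high lymphocyte markers. With any other array left out it lay between -0.78 (without lean replicate 4) and -0.41 (without lean replicate 2).

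Lymphocyte markers were lower in 12 of 13 measured genes (median -0.56), Coro1a (-1.41) and Cd79b (-0.67) had the smallest p, and 1 of the 13 was brighter than every reference gene. Their mean log2 level was 4.57 to 6.02 in lean and 4.49 to 4.56 in cafeteria arrays. With the lymphocyte score as a covariate, chosen for this probe set after its values were seen, its difference was -0.12 (SE 0.21). That of the brighter Pde4b probe set was then 0.0572, with its sign turned. The score was 1.26 in lean replicate 3 and between -0.27 and 0.13 in every other array, so these fits lean on that array. Lean replicate 2, also high on the dimmer probe set, had a score of 0.13. The part of lymphocytes in either difference was not tested.

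**Figure D4:**
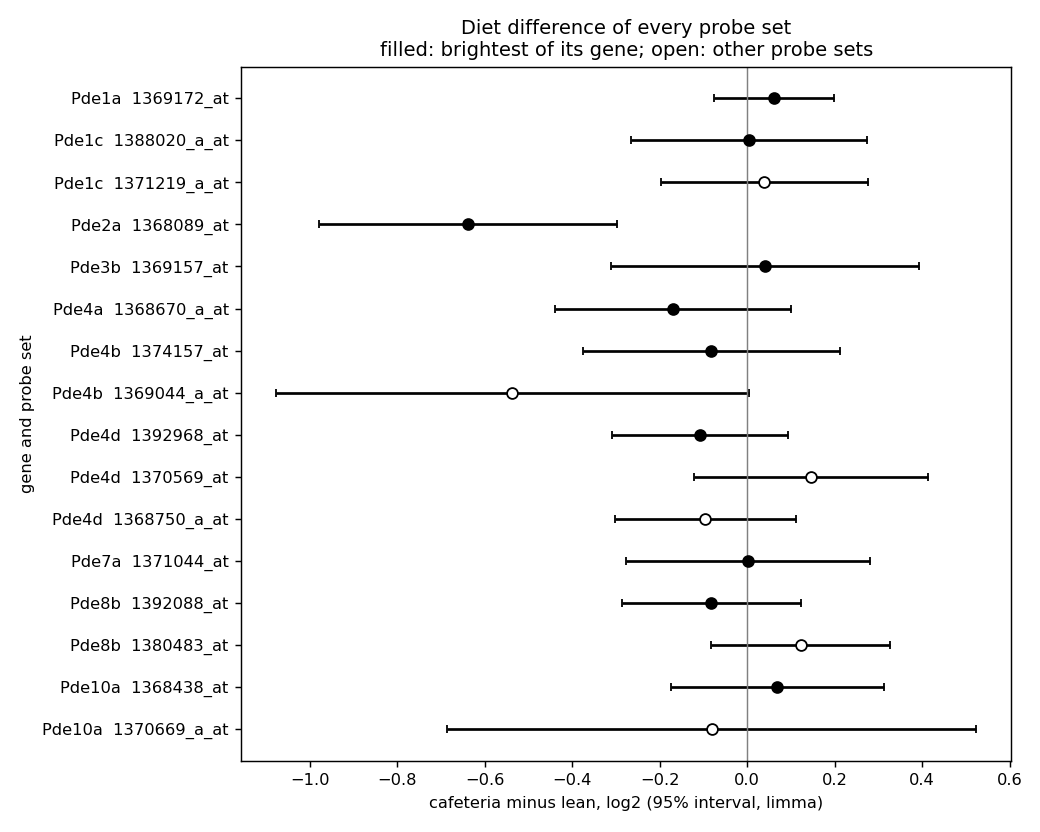
Cafeteria minus lean difference (log2, limma) with its 95% interval for each of the 16 probe sets of the 10 genes; filled points are the brightest probe set of a gene and open points the others. The interval of Pde2a (-0.98 to -0.30) is the only one of the 16 that does not reach 0, and the dimmer Pde4b probe set comes next (-1.08 to 0.0031).

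The dim members gave small differences. Pde7a, a cyclic AMP enzyme of T cells and other tissues, differed by 0.0014 (SE 0.13), Pde1c by 0.0032 (SE 0.12), Pde8b by -0.0818 (SE 0.09) and Pde1a by 0.0616 (SE 0.06). Their adjusted p by limma lay between 0.884 and 0.998. The other probe set of Pde8b, at a mean of 3.93, differed by 0.12 (SE 0.09) and so in the opposite direction, and that of Pde1c by 0.0389 (SE 0.11). Over the brightest probe sets of the 9 members other than Pde2a, the 95% intervals stayed between 0.738 and 1.31 times the lean level. Those of the dimmer Pde4b and Pde10a probe sets were wider, from 0.474 to 1.002 and from 0.622 to 1.44 times.

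None of the 12 other phosphodiesterase genes passed the test, and 0 had an unadjusted p under 0.05 by limma. Pde8a had the largest difference (0.22, SE 0.12; 0.12 without cafeteria replicate 3), followed by Pde6h (-0.15, SE 0.10) and Pde1b (0.12, SE 0.07). The dimmer probe set of Pde8a differed by 0.0627 (SE 0.21) and that of Pde1b by 0.18 (SE 0.09). The differences of the 12 had a median of -0.0101, with 4 higher and 8 lower.

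The genes that make, bind and relay cyclic nucleotides were taken from 6 lists with 58 entries, of which 52 were measured. By limma 0 passed an adjusted p of 0.05 and 4 had an unadjusted p under 0.05, a share of 7.69% beside 6.70% of all genes. Among the cyclases, 7 were higher and 8 lower. Gucy2c, the guanylyl cyclase known as the receptor of guanylin in the gut, differed by 0.84 (SE 0.29, unadjusted p = 0.0157, adjusted p = 0.844), and Adcy6 by -0.25 (SE 0.12; -0.16 without cafeteria replicate 5). The dimmer Adcy6 probe set differed by -0.15 (SE 0.24). Gucy2c read 7.42, 8.06, 8.32 and 8.28 in lean and 8.21, 9.13, 8.27, 9.09 and 9.57 in cafeteria replicates, and the groups overlapped.

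Of the 6 G protein genes 5 were lower, with Gnai2, which inhibits adenylyl cyclase, at -0.34 (SE 0.20) and Gnaz at -0.0714 (SE 0.07). Of the 19 effectors and anchors 7 were higher and 12 lower. Akap12, an anchor of protein kinase A, differed by -0.25 (SE 0.09), and Pkia, an inhibitor of that kinase, by 0.22 (SE 0.10; 0.13 without lean replicate 2). Their dimmer probe sets gave smaller differences, -0.14 (SE 0.17) for Akap12 and 0.11 (SE 0.13) and 0.0608 (SE 0.10) for Pkia. The efflux pump genes Abcc4 and Abcc5 differed by -0.0567 and 0.0041, and the calmodulin gene Calm2 by 0.0263.

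Of the 9 CREB genes 3 were higher and 6 lower, with Crtc3, a CREB coactivator, at -0.17 (SE 0.11). Crem encodes factors that bind the cyclic AMP response element, among them the repressor ICER, whose own transcription cyclic AMP induces. It was the only 1 of the 52 whose groups did not overlap, a share near that of all genes (308 of 14217, 2.17%). Its brightest probe set read 6.30, 6.58, 6.62 and 6.62 in lean and 6.76, 6.97, 7.04, 7.50 and 6.96 in cafeteria replicates, a difference of 0.52 (SE 0.14; limma unadjusted p = 0.00344, adjusted p = 0.844). With single arrays left out, the difference of this probe set lay between 0.40 and 0.59. All 6 probe sets of Crem gave positive differences, from 0.22 to 0.62, with unadjusted p by limma between 0.00344 and 0.0418. The dimmer ones, at means of 5.29, 4.71, 4.53 and 3.98, lay within the range of the reference genes. Probe sets of 1 gene read the same RNA and are not replicates.

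**Figure D5:**
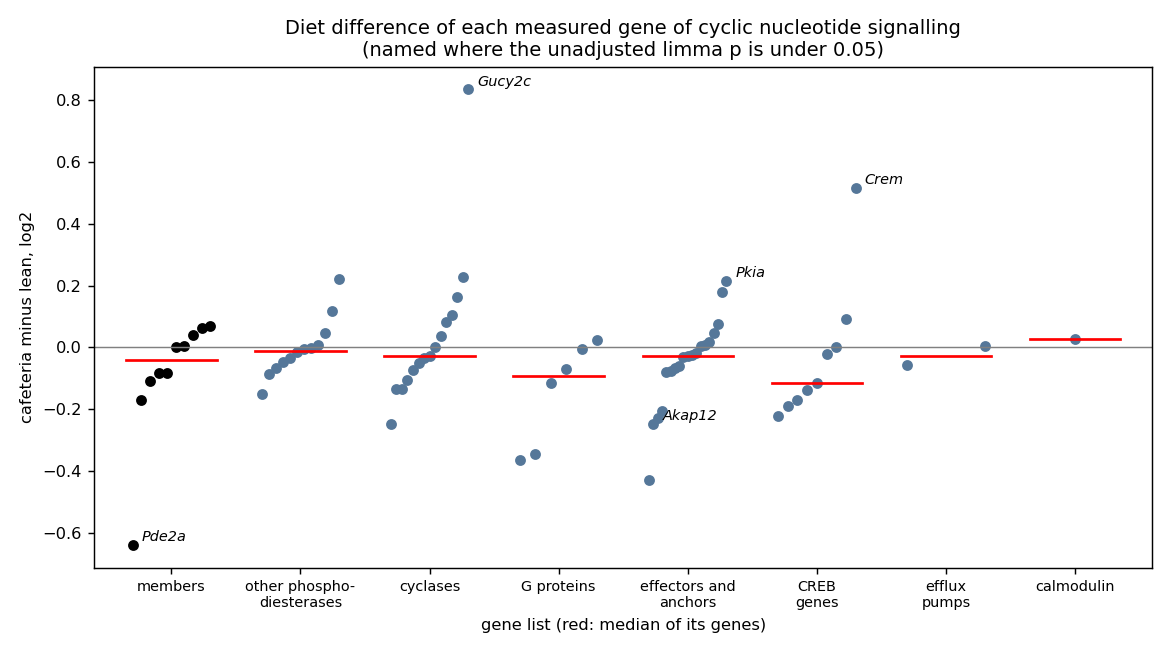
Cafeteria minus lean difference (log2) of every measured gene of the members, the other phosphodiesterases and the 6 lists of cyclic nucleotide signalling, ordered within each list, with the list's median in red. Pde2a (-0.64), Gucy2c (0.84) and Crem (0.52) lie farthest from 0.

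The response element that Crem and CREB bind, TGACGTCA, was searched on both strands in the promoter windows of the members. RefSeq listed 18 windows for 8 members, and Pde3b and Pde7a had no entry in the table. The full element was in 0 of the 18 windows and in 1.83% of all windows. Its core TGACG, which lies within the full element, was in 5 of the 18 and in 21.2% of all windows. The core sites of the 3 members that hold it, Pde10a, Pde4a and Pde4d, are shown with capitals on the core, 5′ to 3′ on the strand of the gene.
Pde10a chr1:54765833-54765857 (-): gtccggctgcTGACGtccaagcctc
Pde10a chr1:54765758-54765782 (-): aggctgcagaCGTCAtcgcctcctg
Pde4d chr2:42592545-42592569 (+): gggaggagggTGACGttgaacaggc
Pde4d chr2:42592508-42592532 (+): ctcccgagctCGTCAagtgatcttt
Pde4d chr2:42767588-42767612 (+): aaaatattaaTGACGgaagagctgc
Pde4a chr8:27966966-27966990 (+): cgtcggcgcaTGACGttcgtcctta
Pde4a chr8:27999385-27999409 (+): cacagctcgaCGTCAggctggggag
Pde10a held a core site on each strand in 1 window, and 2 of the 5 windows of Pde4d and 2 of the 4 windows of Pde4a held the core. The E-box CACGTG was in 1 of the 18 windows, that of Pde8b, and in 6.42% of all windows. A match describes the letters only.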

How the data were processed

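RNA of 9 islet samples was hybridized to Affymetrix rat genome arrays, 1 array each. The authors deposited log2 values for each probe set. RMA, R 2.7.0 and affy 2.0.1 are listed in the submitters' processing notes. RMA equalizes the arrays' distributions, so a shift shared by most genes would be removed. Column medians were 5.28 to 5.32 log2, and no arrays were identical. Of 31099 probe sets, 57 controls were left out. The platform annotation gave 20826 a single gene, 436 several genes, and did not list 9780. The brightest single-gene probe set stood for a gene.

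Differences were tested with limma 3.58.1 (R 4.3.3), lmFit and plain eBayes, two-sided, without covariates, adjusted by Benjamini-Hochberg over 31042 probe sets at 0.05. The fit was tested on simulated data. Precision is limited by the number of arrays (median SE of a gene's difference 0.098 log2). Named genes were all members, the other phosphodiesterases, the 2 genes per pathway list and per marker list shown with the smallest p, and the 5 genes most like Pde2a. The alternatives were other scalings, a filter on dim probe sets, other variance models, array weights, covariates, other probe set rules, an adjusted p of 0.10 and each array left out; for genes other than the members and for the dimmer Pde4b probe set the last was added after seeing the data. The members and lists were chosen with earlier results of these data known, among them the Pde2a difference. Python 3.11.15, numpy 2.4.6, pandas 2.3.3 and matplotlib 3.10.9 made the tables and plots. Sequences are from RefSeq, GRCr8.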

Additional observations from a re-analysis of the deposited data

Results flagged for a closer look

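In 78 groups (39 probe sets of the phosphodiesterases and the named pathway genes, 2 diets each) the highest or lowest array was compared with its neighbours, and 9 stood apart by Dixon's criterion; chance gives about 1 in 20 groups. Lean replicate 1 was low in the dimmer Pde10a probe set (6.19, next 7.14) and in Crem (6.30, next 6.58). Lean replicate 2 was high in Pde1a, but only by 3.78 against 3.75. Cafeteria replicate 2 was low in Pde1c (4.14, next 4.66) and in Pde3a (3.33, next 3.49), and cafeteria replicate 4 was low in Pde8b (4.06, next 4.27). Cafeteria replicate 3 was high in Pde7a (5.34, next 5.003). Cafeteria replicate 1 was high in Pde6d (7.36, next 7.17) and in Akap12 (7.69, next 7.45). The Pde2a value of cafeteria replicate 1 (6.01) did not meet the criterion.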

How the results depend on the processing

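No member passed the threshold under any of the 20 alternatives, and the smallest adjusted p by limma, for any member, was 0.324 (Pde2a, RNA quality as a covariate). Of 186 recomputed differences 165 kept their sign. Pde1a, Pde2a and Pde4a kept theirs throughout; Pde2a lay between -0.71 and -0.50. The sign turned for Pde1c with repeated quantile normalization (-0.0074) and the endothelial score (-0.18), for Pde3b with the endothelial score (-0.17), for Pde4b with the lymphocyte score (0.0572) and for Pde7a with array weights (-0.018). With the most variable probe set it turned for Pde4d (0.15), Pde8b (0.12) and Pde10a (-0.081), and with the mean over probe sets for Pde8b (0.0201) and Pde10a (-0.0060). With single arrays left out, Pde1c ran from -0.0418 to 0.12, Pde3b from -0.0475 to 0.15, Pde7a from -0.11 to 0.0599 and Pde10a from -0.0053 to 0.13. In the same fits Pde4a (-0.23 to -0.0758), Pde4b (-0.22 to -0.0121), Pde4d (-0.15 to -0.0504) and Pde8b (-0.15 to -0.0363) kept their sign but moved by over 1.5 times. The causes were not tested. Among brighter probe sets alone, Pde1a, Pde1c, Pde7a and Pde8b had no value. No paired analysis was possible because the labels give no replicate numbers that the groups share.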
